A study of Rattus norvegicus with 7 samples.

Results

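The genes described here are 6 genes of mitosis, Top2a, Tpx2, Plk1, Bub1, Kif11 and Nusap1, in the lungs of fetal rats. They were chosen by symbol, and each identifier came from the pairs of identifiers and symbols in the supplementary material of the study, from which names alone were used. All 6 were present among the 23918 genes of the lung table. Sprague-Dawley dams were given an intra-amniotic (IA) injection of PBS, the controls, or of 10 µg LPS from E. coli O55:B5 on embryonic day 18, and fetal lungs were taken 24 h later. LPS, lipopolysaccharide, is a part of the bacterial outer membrane that sets off inflammation. There were 3 control lungs (PBS 1 to 3) and 4 IA LPS-exposed lungs (LPS 1 to 4), and the comparison asked how gene expression in the fetal lung differed after exposure.

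In dividing cells, condensed chromosomes are attached to a spindle of microtubules, held at a checkpoint until every chromosome is attached, and then pulled apart. The genes that build this machinery are transcribed mainly late in the cell cycle, so their messenger RNA is low in resting cells. The fetal lung at this stage grows by division of both the epithelium of the branching airways and the surrounding mesenchyme.

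Total estimated counts ran from 25031827 in PBS 1 to 28336525 in LPS 2. A gene with 3 counts corresponded to 0.105 to 0.124 CPM, the count scaled to library size, and the 6 genes lay far above this limit, which covers counting error only. CPM were scaled by trimmed mean of M-values (TMM) factors over all 7 lungs. The test, edgeR's quasi-likelihood test with Benjamini-Hochberg adjustment, was fitted over PBS 1 to 3 and LPS 1 to 3, and again with LPS 4 added. LPS 4 is given apart, and was the highest of the 7 lungs for 31.6% and the lowest for 32.3% of the 15750 genes tested with it. Nothing in the labels states whether the lungs came from separate dams or litters, so p-values measure only the spread between these samples, which may be technical. In whole tissue, fewer cells of a type and less RNA per cell cannot be told apart.

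The mean log2 level of the 6 genes was slightly higher in exposed lungs, but the groups overlapped for Top2a, Tpx2, Plk1 and Kif11. In the main edgeR fit Nusap1 alone of the 6 passed an adjusted p threshold of 0.1. Bub1 passed it as well with upper quartile factors, a stricter filter, DESeq2 or limma-voom. The log2 fold change was above 0 for 6 of 6 genes, with a median of 0.11, while over all 15627 genes tested 50.5% were above 0 and the median was 0.0029. With LPS 4 it was again above 0 for 6 of 6, with a median of 0.16, against 51.5% of all genes and a median of 0.0097. By edgeR, 1 of 6 genes passed an adjusted p of 0.1 over the 6 lungs, where 9.59% of all genes did in either direction and 5.11% were higher. With LPS 4 it was 1 of 6, against 2.5% of all genes in either direction and 1.65% higher. The full thresholds also asked for a fold change of 1.5 or more and an unadjusted p below 0.05. By edgeR, DESeq2 or limma-voom 0 of 6 passed them over the 6 lungs, while 3.3% of all genes did by edgeR, and with LPS 4 it was 0 of 6 by edgeR against 1.9%. At the unadjusted p alone, 2 of 6 passed by edgeR over the 6 lungs, Bub1 and Nusap1, against 22.2% of all genes. Groups did not overlap for 2 of 6 genes, the same pair, with exposed lungs higher. This ordering was found for 14.8% of all genes over 6 lungs and 10.6% over 7.

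Among the spindle proteins, Nusap1 bundles microtubules near the chromosomes. Its level was 116, 106 and 117 CPM in PBS 1 to 3, and 159, 143 and 143 CPM in LPS 1 to 3, with 149 CPM in LPS 4. Each exposed lung was above each control, and LPS 4 lay inside the range of the other exposed lungs. Mean levels were 113 ± 6.12 CPM (SD, n = 3) in controls and 148 ± 9.45 CPM (SD, n = 3) in LPS 1 to 3. Exposed lungs had a log2 fold change of 0.39 (SE 0.0738, 95% interval 0.23 to 0.56), a fold of 1.31, with an edgeR adjusted p of 0.0272. With LPS 4 it was 0.40 (SE 0.0864, edgeR adjusted p = 0.0828). In an exact two-sided permutation test of this gene over the 7 lungs p was 0.0286, the smallest that the 35 arrangements can give. The same exact permutation test gave 0.0571 for Bub1, 0.114 for Kif11, 0.343 for Tpx2, 0.686 for Plk1 and 0.886 for Top2a. These permutation p-values are not adjusted, and the share of all genes reaching 0.0286 was not taken. The fit over 7 lungs lost the call when any of PBS 1 to 3 or LPS 1 to 3 was left out, with edgeR adjusted p between 0.145 and 0.313 and log2 fold changes of 0.35 to 0.42, whereas the fit over 6 lungs kept it without each lung in turn, at 0.0352 to 0.0994. Over all alternatives its adjusted p ran from 6.8e-05 by DESeq2 to 0.313 by edgeR.

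Tpx2 activates the kinase Aurora A on spindle microtubules. It was measured at 282, 280.3 and 246 CPM in PBS 1 to 3, at 295, 281 and 276 CPM in LPS 1 to 3, and at 419 CPM in LPS 4. The first 3 exposed lungs lay close to the upper controls, and LPS 4 stood apart above all other lungs. The log2 fold change was 0.07 (SE 0.0756, 95% interval -0.10 to 0.25, edgeR adjusted p = 0.607), and with LPS 4 it was 0.24 (SE 0.159, edgeR adjusted p = 0.499). Neither value passed the adjusted threshold.

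Kif11 is the motor that pushes the spindle poles apart. Its level was 126, 126 and 121 CPM in the controls, 148, 124 and 135 CPM in LPS 1 to 3, and 140.04 CPM in LPS 4. LPS 2 fell between the controls, so the groups overlapped, and the other exposed lungs were above all controls. For this motor the log2 fold change was 0.12 (SE 0.0767, 95% interval -0.05 to 0.30, edgeR adjusted p = 0.392), and 0.13 with LPS 4.

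Plk1 is the kinase that drives entry into mitosis and spindle assembly. It was at 195, 179 and 170.1 CPM in PBS 1 to 3, at 200.4, 198 and 182 CPM in LPS 1 to 3, and at 165 CPM in LPS 4. The groups overlapped, and LPS 4 was the lowest of the 7 lungs. Its log2 fold change was 0.09 (SE 0.0763, 95% interval -0.08 to 0.27, edgeR adjusted p = 0.523), and 0.04 with LPS 4.

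Bub1 is a kinase of the checkpoint that delays separation until chromosomes are attached. Its level was 125, 132 and 133 CPM in PBS 1 to 3, 159.6, 144 and 149.9 CPM in LPS 1 to 3, and 134 CPM in LPS 4. LPS 1 to 3 lay clear of the controls, while LPS 4 was within 1 CPM of PBS 3. Means were 129.9 ± 4.64 CPM (SD, n = 3) in controls and 151 ± 7.73 CPM (SD, n = 3) in LPS 1 to 3. The log2 fold change was 0.22 (SE 0.0672, 95% interval 0.07 to 0.37), and the edgeR adjusted p of 0.104 was just outside the threshold. With LPS 4 it was 0.18 (SE 0.0902, edgeR adjusted p = 0.384). Bub1 passed the threshold of 0.1 with upper quartile factors, DESeq2, limma-voom and a stricter filter, with an adjusted p of 0.0360 by DESeq2. Over all alternatives run, its adjusted p lay between 0.0360 by DESeq2 and 0.718 by edgeR.

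Top2a untangles DNA so that sister chromosomes can separate. It was at 453, 409 and 419.9 CPM in PBS 1 to 3, at 463, 419 and 444 CPM in LPS 1 to 3, and at 396 CPM in LPS 4. The groups overlapped throughout, with the lowest lung of all in the exposed group. Its log2 fold change was 0.05 (SE 0.0720, 95% interval -0.12 to 0.21, edgeR adjusted p = 0.740), and 0.01 with LPS 4. Over the 7 lungs the sign turned when PBS 2, PBS 3, LPS 1 or LPS 3 was left out, with values of -0.019, -0.0013, -0.026 and -0.0040.

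**Figure D1:**
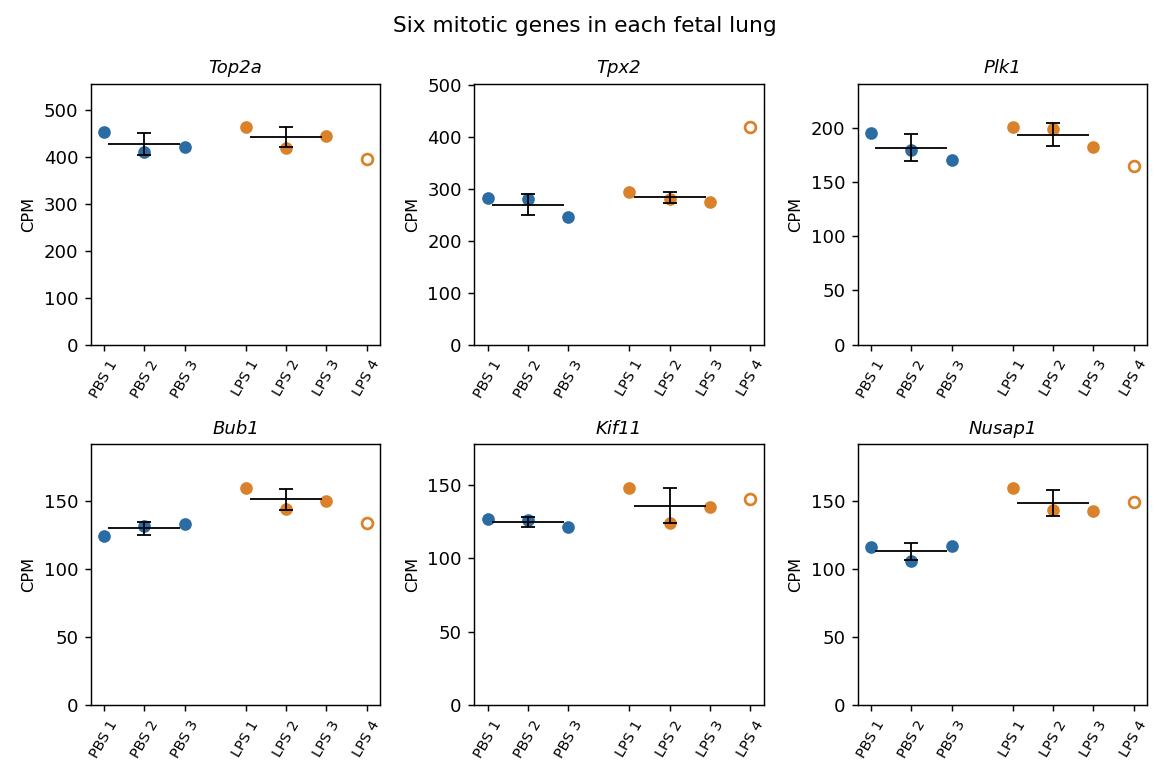
CPM of each of the 6 genes (vertical axis) in the 3 PBS lungs and the 4 LPS lungs, with LPS 4 as an open circle, and lines and bars for the mean and SD of PBS 1 to 3 and of LPS 1 to 3. Nusap1 and Bub1 are the panels in which every exposed lung lies above every control.

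The joint level was taken as the mean of log2 CPM over the 6 genes in each lung, and is given without a test because the genes were chosen with earlier results known. It was 7.56, 7.51 and 7.49 in PBS 1 to 3, 7.76, 7.63 and 7.65 in LPS 1 to 3, and 7.69 in LPS 4. All 4 exposed lungs were above all 3 controls, LPS 1 was the highest and LPS 4 lay between LPS 1 and LPS 3. The difference of means was 0.16 on the log2 scale, with SDs of 0.040 (n = 3) in controls and 0.071 (n = 3) in LPS 1 to 3. It was 0.16 with LPS 4 as well, and lay between 0.12 and 0.18 under each alternative run, none of which left out a gene. Nusap1, at 0.39, and Bub1, at 0.22, had the largest log2 fold changes of the 6. The other genes lay between 0.05 and 0.12, so the joint difference was not shared evenly. LPS 1 was above the control mean for 6 of the 6 genes, LPS 3 for 6, LPS 2 and LPS 4 for 4 each, and PBS 1, the highest control, for 5.

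The joint position of LPS 4 hid wide differences between the genes. Relative to the control mean its log2 level ran from -0.14 to 0.64, from the lowest to the highest of the 6 genes. Tpx2 was 1.52 times the geometric mean of the other 6 lungs in LPS 4, Nusap1 1.15 times, Kif11 1.08 times, Bub1 0.955 times, Top2a 0.911 times and Plk1 0.881 times. LPS 1 was the highest lung for 5 of 6 genes, against 11.4% of all genes, and LPS 4 for Tpx2. The lung with the lowest level varied: LPS 4 for Top2a and Plk1, PBS 3 for Tpx2 and Kif11, PBS 1 for Bub1 and PBS 2 for Nusap1. The SD of log2 CPM within groups was 0.076 for Nusap1 and between 0.086 and 0.12 for Kif11, Bub1, Top2a and Plk1. For Tpx2 it was 0.23, the only 1 of the 6 above the median of all genes, 0.22.

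**Figure D2:**
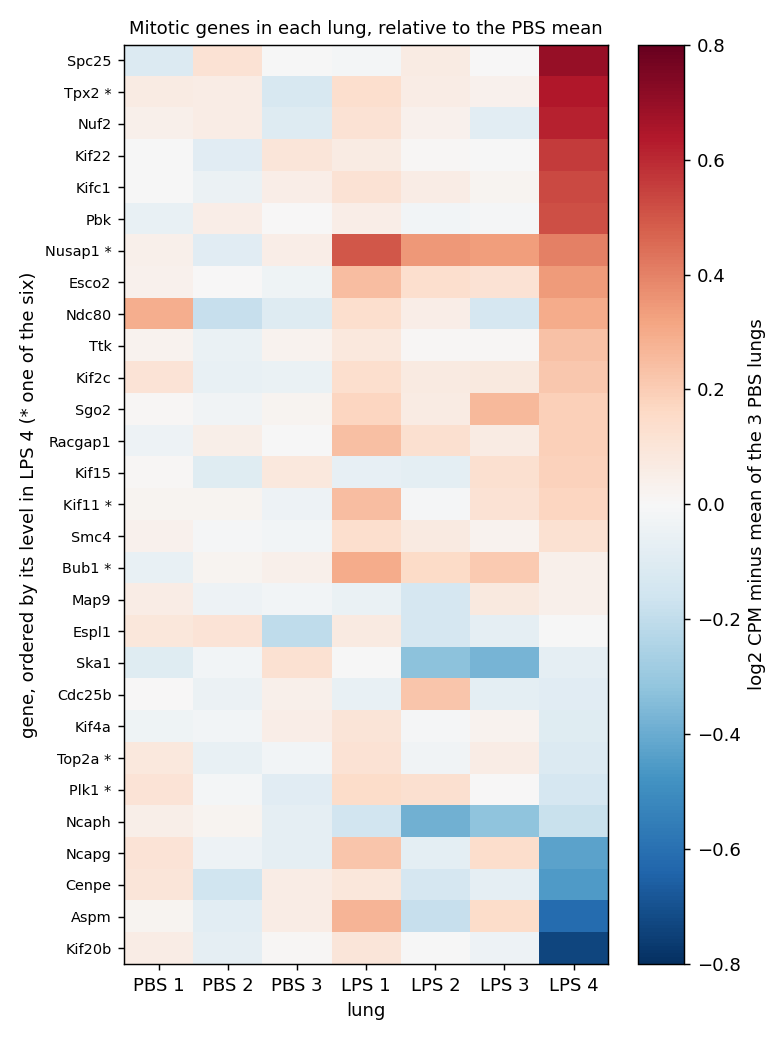
Heat map of the mitotic genes shown (vertical axis, ordered by their level in LPS 4, the 6 genes marked with an asterisk) in each of the 7 lungs (horizontal axis), with colour giving log2 CPM minus the mean of the 3 PBS lungs. Nusap1 is above the control mean in all 4 exposed lungs, and LPS 4 holds both the highest and the lowest values.

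Beyond the 6 genes, 5 lists of mitotic genes held 95 symbols, of which 30 had an identifier, the 6 included. These pairs, those of the 6 genes among them, came from gene lists made for the placenta, so the 30 are not a random draw. Of the 30, 24 had a log2 fold change above 0 over the 6 lungs, with a median of 0.045, and 22 over 7 lungs, with a median of 0.085. By edgeR 1 was higher at an adjusted p under 0.1, Nusap1, and 1 was lower, Ncaph, against 5.11% of all genes higher and 4.48% lower. With LPS 4 the call on Nusap1 was the only one of the 30, against 2.5% of all genes in either direction. The other 24 alone had 18 above 0 with a median of 0.028, against 50.5% of all genes above 0. Over 7 lungs 16 were above 0 with a median of 0.083, against 51.5%. The mean log2 level of these 24 relative to the control mean was 0.030, -0.029 and -0.0015 in PBS 1 to 3. In LPS 1 to 3 it was 0.090, -0.018 and -0.0020, and in LPS 4 0.086, so the groups overlapped. They did not for the joint level of the 6 genes, though they did for Top2a, Tpx2, Plk1 and Kif11 singly. Both sets were chosen with earlier results known, so this contrast is a description only. Of 543 other genes named through the same placental list as the 6, 240 were above 0, and the median was -0.07.

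Spindle motors and microtubule proteins had 11 of 23 symbols with an identifier, 9 with a log2 fold change above 0, against 50.5% of all genes. By edgeR 1 of the 11, Nusap1, passed the adjusted threshold, against 9.59% of all genes. It was also the only 1 at an unadjusted p of 0.05, against 22.2%, and DESeq2 and limma-voom each called it alone. Over the 6 lungs Nusap1 and Kif11 had the largest changes in size. With LPS 4 Nusap1 was still the largest, but Tpx2, at 0.24, was larger than Kif11, at 0.13. The kinases and cyclins had 4 of 19, and 0 of these 4 passed the adjusted threshold by edgeR, DESeq2 or limma-voom, against 9.59% of all genes by edgeR, or an unadjusted p of 0.05 by edgeR, against 22.2%, with Plk1 at 0.09 and Ttk, a checkpoint kinase, at 0.03. Of the checkpoint and kinetochore genes, 8 of 25 had an identifier. By edgeR 0 of the 8 passed the adjusted threshold and 2, Bub1 and Sgo2, an unadjusted p of 0.05, against 22.2% of all genes, and DESeq2 and limma-voom each called Bub1. Ska1, which couples kinetochores to microtubules, had a log2 fold change of -0.23 (SE 0.117, edgeR adjusted p = 0.289).

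Chromosome structure and segregation had 6 of 14 symbols with an identifier. Ncaph, a subunit of condensin that compacts chromosomes, was at 101, 99.6 and 93.4 CPM in PBS 1 to 3, at 88.1, 75.2 and 78.4 CPM in LPS 1 to 3, and at 86.8 CPM in LPS 4. It was lower in each exposed lung than in each control, an ordering found for 13.2% of all genes over 6 lungs and 9.18% over 7. The log2 fold change was -0.28 (SE 0.0761, edgeR adjusted p = 0.0716), and with LPS 4 it was -0.26 (edgeR adjusted p = 0.238). The call was lost without PBS 1, PBS 2, LPS 2 or LPS 3, with edgeR adjusted p of 0.217, 0.150, 0.179 and 0.184, and over all alternatives adjusted p ran from 0.0140 by DESeq2 to 0.578 by edgeR. Esco2, which helps hold sister chromatids together, had 0.17 (SE 0.0616, edgeR adjusted p = 0.165). Mitotic exit and cytokinesis had 1 of 14, Racgap1, a regulator of the cleavage furrow, at 0.14 (SE 0.0696, edgeR adjusted p = 0.273), and it did not pass an unadjusted p of 0.05 by edgeR.

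DNA replication genes had 2 of 44 symbols with an identifier, Exo1 and Pole2, with log2 fold changes of -0.18 and -0.09. By edgeR 0 of the 2 passed the adjusted threshold, against 9.59% of all genes, or the unadjusted p, against 22.2%, and DESeq2 and limma-voom called 0. For the cell cycle inhibitors, 0 of 15 symbols had an identifier.

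**Figure D3:**
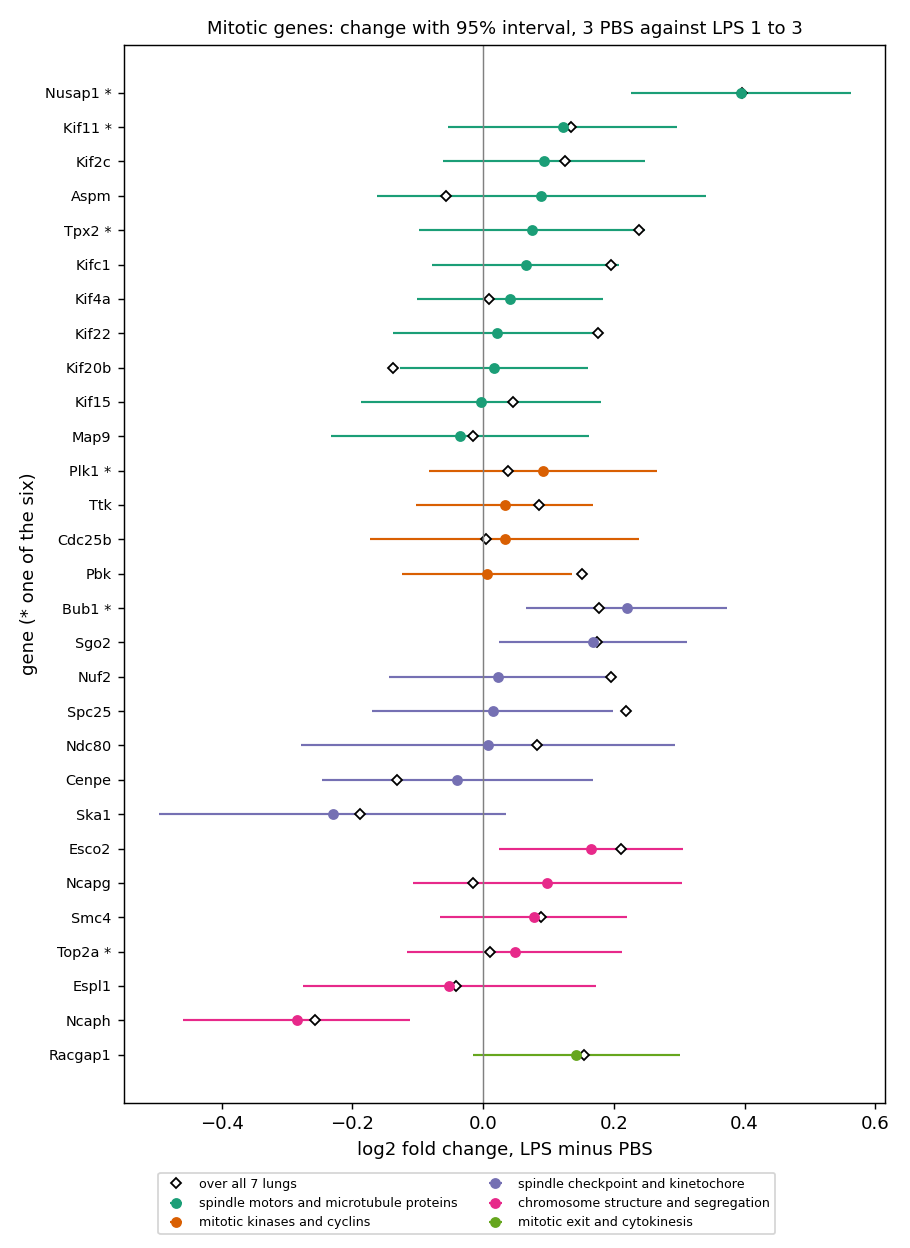
Log2 fold change (horizontal axis) with 95% interval for the mitotic genes shown, over PBS 1 to 3 and LPS 1 to 3, and the value over all 7 lungs as open diamonds. Nusap1 lies farthest to the right and Ncaph farthest to the left.

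LPS 4 was the highest of the 7 lungs for 11 of the 30 genes and the lowest for 8, against 31.6% and 32.3% of all genes. LPS 1 was the highest for 12 and the lowest for 0, against 11.4% and 10.7% of all genes. The genes with the largest departures in LPS 4, chosen after their values were seen, split in both directions. Spc25 and Nuf2, both of the kinetochore complex that binds microtubules, were 1.61 and 1.52 times the geometric mean of the other 6 lungs. Kif20b and Aspm, a motor and a spindle pole protein, were 0.597 and 0.634 times that mean. The median absolute log2 difference of LPS 4 from the other lungs was 0.19 over the 30 genes and 0.37 over all genes. The 30 genes also varied less among the other 6 lungs, with a median log2 range of 0.25 against 0.44 for all genes.

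Genes of like pattern were sought by the root mean square distance of centred log2 CPM from the mean profile of the 6 genes over the 7 lungs, among 14311 genes of at least 1 CPM. Of the 10 nearest, 1 had a symbol, Smc4, a core subunit of condensin, at rank 10 with a distance of 0.043. The nearest, ENSRNOG00000016265, lay at 0.032. The median distance was 0.22 for all these genes and 0.15 for the other mitotic genes. The distance is not scaled to spread, so a gene that varies little lies near this profile whatever its pattern. Without LPS 4 the median log2 range was 0.25 for the 30 mitotic genes and 0.44 for all genes tested. The smaller distance therefore does not by itself show a shared pattern. Of the nearest 100, 5 had a symbol, and 4 of these were on the mitotic lists. Among the genes compared, 24 were on the mitotic lists beyond the 6. The share of mitotic genes among all those with a symbol is not given here, so 4 of 5 is a description only.

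Markers of several cell types moved with the groups. Of the lung epithelium list, 6 of 16 symbols had an identifier, and Sftpc, Sftpd, Cldn18 and Emp2 of the 5 tested were higher by edgeR at an adjusted p under 0.1, against 5.11% of all genes. With LPS 4 the call on Sftpc was lost (edgeR adjusted p = 0.145), though its log2 fold change went from 0.55 to 0.70. The summed level was 1104, 1428 and 1338 CPM in PBS 1 to 3, 1733, 1899 and 1746 CPM in LPS 1 to 3 and 2280 CPM in LPS 4, with Sftpc the most abundant. Nkx2-1, which defines lung epithelium, was at 311 to 389 CPM in all lungs. Of the myeloid list, 8 of 14 had an identifier, and Lyz2, the most abundant, S100a9 and Cx3cr1 were higher by the same rule over the 6 lungs. With LPS 4 all 3 calls were lost, with edgeR adjusted p of 0.390, 0.127 and 0.521, and the log2 fold changes went from 0.61 to 0.45, from 1.89 to 1.81 and from 0.72 to 0.48. Over the 6 lungs DESeq2 and limma-voom each called 4 of the 8, S100a8 in addition, and 6 of the 8 passed an unadjusted p of 0.05 by edgeR. Of all genes 9.59% passed the adjusted and 22.2% the unadjusted threshold by edgeR. Their list summed to 172, 194 and 256 CPM in PBS 1 to 3, 352, 302 and 284 CPM in LPS 1 to 3 and 194 CPM in LPS 4.

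Of the cartilage list, 6 of 10 had an identifier, and Col2a1, the most abundant, Col9a2, Col11a2 and Cnmd were lower by edgeR at an adjusted p under 0.1, against 4.48% of all genes. With LPS 4 the calls on Col9a2 and Cnmd were lost, with edgeR adjusted p of 0.114 and 0.217, and the log2 fold changes went from -1.05 to -0.86 and from -0.45 to -0.40. The summed level was 446, 434 and 416 CPM in PBS 1 to 3, 254, 290 and 285 CPM in LPS 1 to 3 and 272 CPM in LPS 4. Of the smooth muscle list, 3 of 6 had an identifier. By the same rule 1 of the 3, Myh11, the most abundant, was lower over the 6 lungs, against 4.48% of all genes. That call was lost with LPS 4 (edgeR adjusted p = 0.200), where the log2 fold change went from -0.65 to -0.56. This list summed to 703, 679 and 501 CPM in PBS 1 to 3, 550, 412 and 379 CPM in LPS 1 to 3 and 553 CPM in LPS 4, so the groups overlapped. For endothelium and mesenchyme 0 symbols had an identifier. The part of these cell types in the mitotic genes was not tested.

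Erythroid precursors divide while they mature. Of the erythroid list, 15 of 20 had an identifier, all 15 had a log2 fold change above 0 with a median of 0.38, and 0 passed the adjusted threshold by edgeR, against 50.5% of all genes above 0 and 9.59% past that threshold. Without LPS 2, 8 of the 15 were above 0 with a median of 0.019, and without PBS 2, 10 with a median of 0.19. At an unadjusted p under 0.05, which 22.2% of all genes passed, it was 1, Ermap, which DESeq2 also called, and limma-voom called 0. The summed level was 436, 337 and 527 CPM in PBS 1 to 3, 358, 744 and 472 CPM in LPS 1 to 3 and 515 CPM in LPS 4, with Slc4a1 the most abundant. The part of erythroid cells in the mitotic genes was not tested.

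The summed lymphoid markers were highest in LPS 2, and the summed thymus and liver markers in PBS 3, where nearly all of the sum was Alb, a liver gene. Lymphoid markers, 3 of 11 with an identifier, summed to 2.31, 1.18 and 2.46 CPM in PBS 1 to 3, 2.10, 29.5 and 1.68 CPM in LPS 1 to 3 and 1.86 CPM in LPS 4, with Rag1 the most abundant. Thymus and liver markers, 2 of 7 with an identifier, summed to 64.3, 8.80 and 513 CPM in PBS 1 to 3, 2.44, 86.6 and 3.14 CPM in LPS 1 to 3 and 15.4 CPM in LPS 4, with Alb the most abundant. Ptcra, a gene of thymocytes, was at 2.80 CPM in LPS 2, at 0 in PBS 1 and PBS 2 and at 0.071 CPM or less in the other lungs. By edgeR 0 of the 3 lymphoid genes passed the adjusted threshold, against 9.59% of all genes, and 1, Rag1, an unadjusted p of 0.05, against 22.2%, and DESeq2 and limma-voom called 0. Alb, the 1 gene of the other list that was tested, passed neither threshold by edgeR and was not called by DESeq2 or limma-voom. Without PBS 3 and LPS 2, an alternative chosen after seeing the data, Nusap1 had a log2 fold change of 0.44 (edgeR adjusted p = 0.0758), Bub1 0.27 (edgeR adjusted p = 0.122) and the joint difference was 0.17.

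The promoters of mitotic genes are known for the cell cycle genes homology region (CHR), often near CCAAT boxes. Promoter sequences from RefSeq (build GRCr8), 250 bases before to 50 after the start, had an entry for 5 of the 6 genes, and Tpx2 is named only. The motifs searched on both strands were TTTGAA or TTCGAA for the CHR, and CCAAT. Of the 5 genes 3 held a CHR, 4 held CCAAT and 3 held both, against 19.7%, 37.5% and 7.95% of all 33469 promoters. Among the 30 mitotic genes, 24 had an entry, 25 promoters in all, and 18 of these held a CHR, 17 CCAAT and 15 both. These matches are descriptions of sequence only. The stretch from 100 bases before to 50 after the start is shown, read 5′ to 3′ along the gene, so that the promoter of Nusap1, the gene with the largest change, can be set beside the others. Capitals mark a motif on either strand.
Top2a: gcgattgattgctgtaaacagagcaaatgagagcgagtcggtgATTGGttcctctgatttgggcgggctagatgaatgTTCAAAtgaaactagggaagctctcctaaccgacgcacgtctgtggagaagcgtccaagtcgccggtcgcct
Plk1: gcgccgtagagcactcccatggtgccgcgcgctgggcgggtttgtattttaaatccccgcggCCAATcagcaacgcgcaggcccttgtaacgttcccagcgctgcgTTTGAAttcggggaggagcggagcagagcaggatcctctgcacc
Bub1: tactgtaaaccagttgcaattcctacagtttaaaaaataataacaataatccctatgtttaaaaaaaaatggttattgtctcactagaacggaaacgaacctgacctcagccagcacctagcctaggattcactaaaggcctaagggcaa
Kif11: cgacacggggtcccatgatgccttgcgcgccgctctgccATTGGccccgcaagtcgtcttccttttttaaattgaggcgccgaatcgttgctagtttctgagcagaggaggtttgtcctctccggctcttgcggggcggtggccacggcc
Nusap1: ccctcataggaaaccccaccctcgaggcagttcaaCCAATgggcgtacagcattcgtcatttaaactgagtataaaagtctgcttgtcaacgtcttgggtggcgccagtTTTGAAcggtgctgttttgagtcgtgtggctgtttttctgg
Top2a lies at chr10:84473044-84473193 on the minus strand, Plk1 at chr1:186147558-186147707 on the plus strand, Bub1 at chr3:135504872-135505021 on the minus strand, Kif11 at chr1:244536767-244536916 on the plus strand and Nusap1 at chr3:127057195-127057344 on the plus strand. Nusap1, Plk1 and Top2a carry both motifs in the stretch shown, Kif11 carries CCAAT and Bub1 neither. Nusap1 and Bub1, the pair whose groups did not overlap, differ in the motifs of this window.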

How the data were processed

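RNA of 7 fetal lungs was sequenced, 3 from the PBS group and 4 from the LPS group. The deposited values are estimated counts. The authors ran kallisto against rat build rno6.0 and summed transcripts to genes with tximport. Their versions and the annotation release are not given in the sources used here. Zeros included, between 73.1% and 75.1% of the values in a lung were exactly whole. The estimated counts were rounded to whole numbers and analysed in R 4.3.3 with edgeR 4.0.16 (filterByExpr, TMM factors, quasi-likelihood test, Benjamini-Hochberg adjustment over all genes tested). The fit used PBS 1 to 3 and LPS 1 to 3, and again all 7 lungs. Alternatives used DESeq2 1.42.0, limma-voom with limma 3.58.1, other scaling factors, other filters, a replicate block and fits without single lungs. Log2 CPM had a prior count of 2. Single genes were also compared by an exact two-sided permutation test over 3 against 4 lungs.

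Symbols came from pairs in the supplementary material, which named 2050 of the 23918 identifiers. Genes were named by a rule: the 6 genes in full, of each list those at an adjusted p under 0.1 and the 2 with the largest log2 fold change in size, of each marker list the most abundant gene and those at an adjusted p under 0.1, and of the 10 genes of most like pattern those with a symbol. Sgo2, Spc25, Nuf2, Kif20b, Aspm, Kif22, Kifc1, Pbk, Cdc25b, Ermap, S100a8, Nkx2-1 and Ptcra fall outside it and were chosen after their values were seen. The members and the lists were chosen with earlier results of these data known. A gene of the mitotic lists is counted but not reported here by name or in the figures. The fit across genes was tested on simulated data.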

Additional observations from a re-analysis of the deposited data

Results flagged for a closer look

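In 38 groups of the 4 exposed lungs, each for a mitotic gene, the joint level or a summed marker list, 8 had a single lung far from the other 3, by the ratio of its gap to the whole range. The cut-off is set so that chance gives such a gap in about 1 in 20 independent groups. These groups were not independent, since all came from the same 4 lungs and the joint level was made of genes also counted singly. LPS 4 was also the highest of all lungs for 31.6% of all genes tested and the lowest for 32.3%. The share of all genes with such a gap was not taken, so 8 of 38 is a description only. In LPS 4, Tpx2 was at 419 CPM against 276 to 295 CPM in the other exposed lungs, Kif22 at 190.5 CPM against 129 to 136 CPM, and Kifc1 at 168 CPM against 118 to 126 CPM. Pbk was at 84.8 CPM in LPS 4 against 58.4 to 61.6 CPM, and Spc25 at 46.7 CPM against 28.5 to 30.2 CPM. In LPS 2, Cdc25b was at 149 CPM against 120.4 to 123 CPM. The summed lymphoid markers were at 29.5 CPM in LPS 2 against 1.68 to 2.10 CPM, and the summed thymus and liver markers at 86.6 CPM against 2.44 to 15.4 CPM.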

How the results depend on the processing

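The joint difference and the log2 fold changes of Tpx2, Bub1, Kif11 and Nusap1 stayed above 0 under every alternative run. Those of Top2a and Plk1 did so except in fits over 7 lungs without 1 lung, where Top2a had -0.019 without PBS 2, -0.0013 without PBS 3, -0.026 without LPS 1 and -0.0040 without LPS 3, and Plk1 -0.0061 without PBS 3; the cause was not tested. Over all genes, 339 were higher and 176 lower past the full thresholds. With all 7 lungs it was 220 and 80. Without 1 lung of the 6 it was 150 to 384 and 67 to 177, with 150 and 67 without PBS 1 and 170 and 84 without LPS 2. Without 1 lung of the 7 it was 1 to 339 and 0 to 176, with 126 and 70 without LPS 1, 127 and 39 without LPS 3, and 0 to 2 each way without PBS 1, PBS 2, PBS 3 or LPS 2, and without PBS 3 and LPS 2 of the 6 it was 210 and 110. Leaving out 1 of the 7, or that pair, was chosen once the data had been seen. Of the 6 mitotic genes, 2 passed an adjusted p of 0.1 with upper quartile factors, DESeq2, limma-voom and a stricter filter in place of 1, and 0 to 1 without 1 lung of the 7. Of the 30, 2 passed, against 1 with all 7 lungs, 1 to 2 without 1 of the 6, 0 to 2 without 1 of the 7, 1 without PBS 3 and LPS 2, and 3 with upper quartile factors, DESeq2, limma-voom and the stricter filter. With the replicate number as a block 1 of the 30 passed, Nusap1 (0.39, edgeR adjusted p = 0.0582), Ncaph had an edgeR adjusted p of 0.110, and all-gene counts were 267 and 150. The labels share only numbers: deviations of same-numbered lungs correlated at 0.17, -0.096 and -0.20, and PBS 2 correlated best with LPS 3. With 3 lungs a group an exact permutation test cannot give a p below 0.1, so single genes were permuted only over the 7 lungs.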
